A study of Mus musculus with 4 samples.

Results

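The genes described here are 9 genes of the oligodendrocyte lineage: Olig1, Olig2, Nkx2-2, Sox8, Sox10, Pdgfra, Cspg4, Bcas1 and Cnp. They were taken by name from a table of 34866 mouse genes, each symbol matched 1 gene identifier, and all 9 were among the 14050 genes with enough counts to be tested. The cells were neural stem and progenitor cells from the dorsal telencephalon of wild-type mouse embryos at E11.5, infected with lentivirus on plating and kept as neurospheres, which are floating balls of dividing progenitors and their progeny, with 20 ng/ml bFGF (basic fibroblast growth factor) for 5 days. The control group received 1 vector, CS-EG-shControl, at a multiplicity of infection of 30. The triple knockdown group (sh3F) received 3 vectors at 10 each, pCS-EG-shPhf21b against Phf21b, pLV-EG-shZfp7 against Zfp7 and pLV-EG-shZfp57 against Zfp57, so that the groups differed in vector backbone and vector number as well as in hairpin. Triple knockdown names what the group received, since none of the 3 targeted genes passed the test. Each group had 2 RNA-seq libraries, and no label says whether replicates came from separate litters or cultures, so each p-value is based on the spread among these libraries alone, which may be technical. The study concerns the timing of neuron production, and the levels of these glial genes in its 2 groups are given here.

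Oligodendrocytes, the myelin-forming glia of the brain, arise from precursors that are specified by the basic helix-loop-helix factors Olig1 and Olig2. Sox8, Sox9 and Sox10 act with the Olig factors during specification and maturation, and the homeodomain factor Nkx2-2 takes part in the onset of differentiation. Precursors carry the PDGF receptor Pdgfra and the NG2 proteoglycan Cspg4 on their surface, Bcas1 marks cells that are starting to form myelin, and Cnp is an enzyme of the myelin sheath. In the mouse cortex this lineage follows neurogenesis, and Olig2 is also expressed in progenitors of the ventral forebrain and is known to appear in cortical progenitors cultured with fibroblast growth factor.

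None of the 9 genes passed the quasi-likelihood test of edgeR at the threshold used, a Benjamini-Hochberg adjusted p of less than 0.05. In the triple knockdown 0 of the 9 were higher and 0 were lower, while of all tested genes 1.37% passed, 0.541% as higher and 0.826% as lower. At an unadjusted p under 0.05 there was 1 gene, Pdgfra, which was lower, against a background of 12% of tested genes, 5.14% higher and 6.85% lower. DESeq2, which was run without the filter on low counts and so tested more genes of most lists named below, and limma-voom also called 0 of the 9, with 0 and 1 at an unadjusted p under 0.05. The median log2 fold change of the 9 genes was 0.04, against -0.01 over all tested genes, and 3 of the 9 values were below 0, where 51.1% of all tested genes were. Both knockdown libraries lay above both control libraries, or both lay below them, for 3 of the 9 genes (Olig2 and Nkx2-2 above, Pdgfra below), and 41.3% of tested genes were separated in this way, 19.6% above and 21.7% below. The 9 genes together took 125 and 112 CPM (the count scaled to library size with TMM factors) in the control libraries and 117 and 111 CPM in the knockdown libraries. Olig1 and Olig2 made up most of this sum in every library. These are bulk samples, in which fewer cells of a type and less RNA per cell cannot be told apart.

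**Figure D1:**
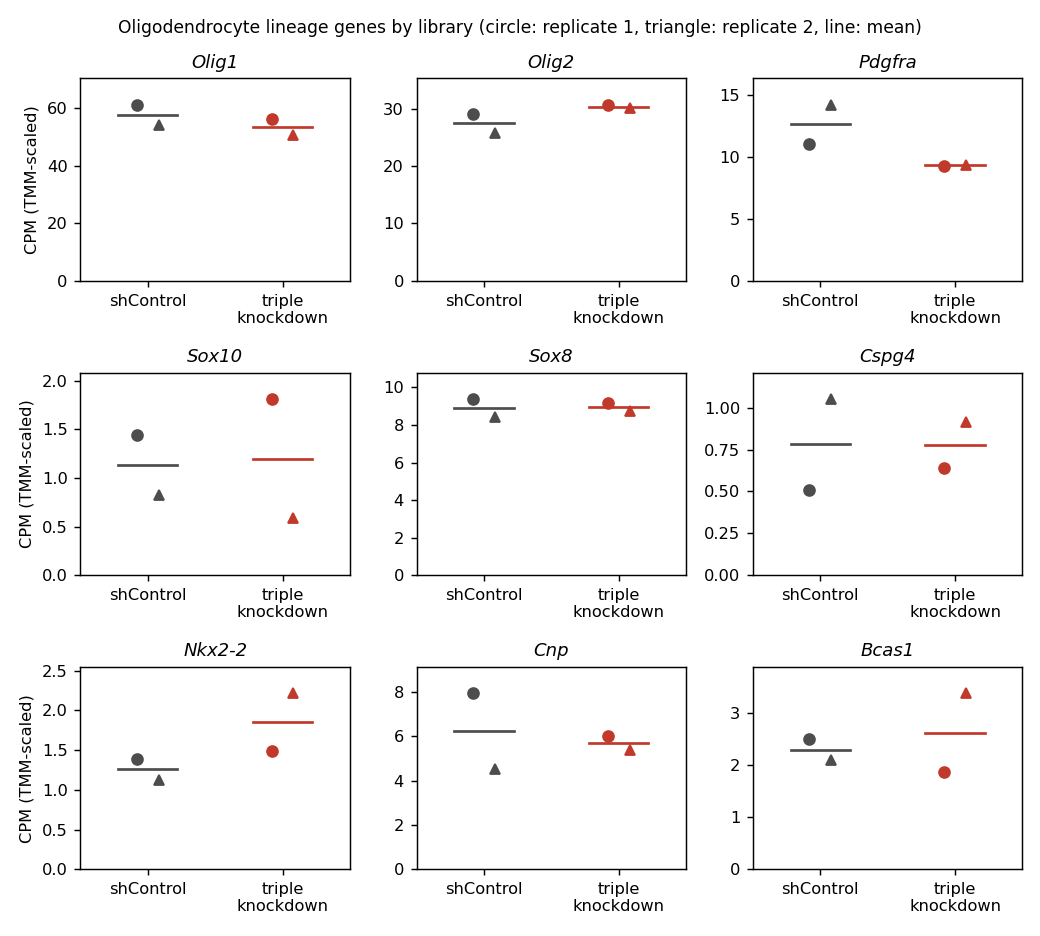
Level of each of the 9 genes in each library, in TMM-scaled CPM on axes that start at 0; circles are replicate 1, triangles replicate 2 and lines the mean of 2 libraries. Pdgfra lies lower in both knockdown libraries (9.27 and 9.38 CPM) than in both control libraries (11.1 and 14.2 CPM). The Olig1, Sox8, Sox10, Cspg4, Cnp and Bcas1 libraries of the 2 groups overlap.

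Levels of the 9 genes spanned a wide range when expressed per length. Olig1 was the most abundant, at a mean of 25.7 CPM per kb of exonic length over the 4 libraries (range 23.5 to 28.3), which placed it above 91.3% of tested genes. Olig2 followed with 11.4 CPM per kb (10.2 to 12.1) and Sox8 with 2.86 (2.70 to 3.01). Cnp at 1.64 (1.24 to 2.18) and Pdgfra at 1.10 (0.925 to 1.42) overlapped in their ranges. Bcas1 at 0.653 CPM per kb overlapped with Nkx2-2 at 0.542, and Nkx2-2 with Sox10 at 0.382, with ranges of 0.494 to 0.897, 0.392 to 0.770 and 0.192 to 0.594. Cspg4 was the lowest at 0.0653 CPM per kb (0.0428 to 0.0882). Olig1 and Olig2 thus had the highest means, Sox8 came next, and the other genes had means below 2 CPM per kb. The largest step between neighbours in this order was the 5.86-fold one from Sox10 to the precursor proteoglycan Cspg4. Cspg4 had 11 to 14 counts in a library. The order of the 9 was the same with the length of the longest transcript in place of the exonic length.

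**Figure D2:**
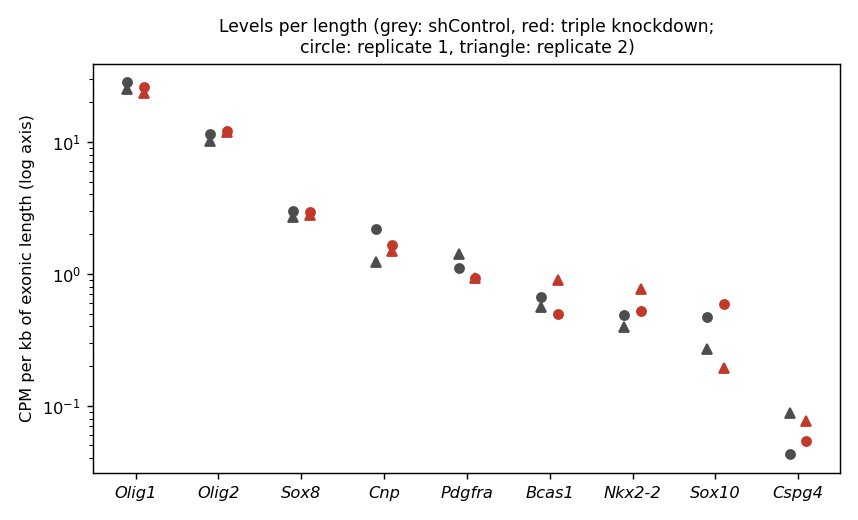
Level per kb of exonic length of the 9 genes in each library, on a log axis and ordered by mean; grey is shControl, red is the triple knockdown, circles are replicate 1 and triangles replicate 2. Olig1 and Olig2 stand above the others in all 4 libraries, and Cspg4 reaches at most 0.0882 CPM per kb.

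The lineage-determining factors Olig1 and Olig2 did not differ between the groups past the threshold, and their estimates lay on opposite sides of 0. Olig1 (ENSMUSG00000046160.6, chromosome 16, 91269772 to 91271933 on the plus strand of GRCm38) measured 61.2 and 54.2 CPM in the control libraries and 56.4 and 50.7 CPM in the knockdown libraries. The groups overlapped, and the knockdown level was 92.8% of control with a 95% interval of 76.8% to 112% (log2 fold change -0.11 with an SE of 0.14, adjusted p = 0.832 in edgeR). Olig2 (ENSMUSG00000039830.8, chromosome 16, 91225457 to 91228677), its neighbour on the same strand, measured 29.1 and 25.8 CPM in the controls and 30.6 and 30.0 CPM in the knockdown. Both knockdown libraries were above both controls by a small margin, at 110% of control with an interval of 89.6% to 136% (log2 fold change 0.14 with an SE of 0.15, adjusted p = 0.789 in edgeR). Per length, Olig1 exceeded Olig2 in all 4 libraries, by 2.46-fold in each control library and by 2.15-fold and 1.98-fold in knockdown replicates 1 and 2. For Olig1, 7.26% of the exonic bases overlap the opposite-strand gene Gm15966, and since no source used here says whether strand was kept, reads of the 2 genes there cannot be told apart. Olig2 shares no exonic base and no 31-base word with another gene.

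Nkx2-2, the homeodomain factor, had few counts. It had 30 and 15 counts in the control libraries and 28 and 34 in the knockdown libraries, or 1.39 and 1.13 CPM against 1.49 and 2.22 CPM. Both knockdown libraries were above both controls, but the knockdown replicates differed more from each other than replicate 1 did from the controls. The knockdown level was 144% of control with an interval of 80.9% to 256% (log2 fold change 0.52 with an SE of 0.42, adjusted p = 0.678 in edgeR). Of the exonic bases of Nkx2-2 (ENSMUSG00000027434.11, chromosome 2, 147177546 to 147194243, minus strand), 9.67% overlap the antisense gene Nkx2-2os.

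The SoxE factors Sox8 and Sox10 showed estimates near 0 with very different precision. Sox8 (ENSMUSG00000024176.10, chromosome 17, 25565892 to 25570686, minus strand) measured 9.38 and 8.41 CPM in the controls and 9.17 and 8.73 CPM in the knockdown, so that both knockdown libraries lay between the control libraries. The interval was 76.5% to 131% of control (log2 fold change 0.0033 with an SE of 0.20, adjusted p = 0.998 in edgeR). Sox10 (ENSMUSG00000033006.10, chromosome 15, 79154908 to 79165240, minus strand) measured 1.44 and 0.826 CPM in the controls and 1.81 and 0.586 CPM in the knockdown. The spread within each group exceeded the difference between them, and the interval ran from 54.2% to 204% of control (log2 fold change 0.07 with an SE of 0.48, adjusted p = 0.975 in edgeR). The third SoxE gene, Sox9, a factor of radial glia and early glial specification, was more abundant than Sox10 per length in all 4 libraries, by 17.2-fold and 32.7-fold in the controls and by 13.1-fold and 43.2-fold in the knockdown. It measured 35.0 ± 2.19 CPM in the controls and 33.3 ± 1.47 CPM in the knockdown (SD, n = 2 libraries each; adjusted p = 0.904 in edgeR).

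Because Sox9 was so much more abundant, the sequence that Sox10 shares with it is shown beside the low Sox10 counts. The coding sequences of both hold stretches of 41 and 44 identical bases, a few bases apart, in which a short read could come from either gene, and 25 of the 3043 31-base words of Sox10 (0.822%) also occur in another gene. The window that spans both stretches is shown in the coding strand, 5′ to 3′, for the 3 SoxE genes, from the GENCODE M21 transcripts on GRCm38. It has 89 bases and lies at chr15:79163430-79163518 (minus strand) in exon 3 of Sox10, at chr11:112782786-112782874 (plus strand) in exon 1 of Sox9 and at chr17:25570257-25570345 (minus strand) in exon 1 of Sox8. Capitals mark bases that differ from Sox10.
Sox10: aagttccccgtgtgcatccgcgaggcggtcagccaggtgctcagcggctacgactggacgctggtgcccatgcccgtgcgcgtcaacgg
Sox9: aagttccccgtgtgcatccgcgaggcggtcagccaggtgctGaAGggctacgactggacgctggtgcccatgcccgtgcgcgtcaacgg
Sox8: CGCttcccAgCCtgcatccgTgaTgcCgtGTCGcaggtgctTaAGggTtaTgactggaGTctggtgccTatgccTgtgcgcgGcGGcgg
The Sox9 window differs from that of Sox10 at 3 positions (96.6% identity) and the Sox8 window at 25 (71.9% identity). The longest coding transcripts of Sox8 and Sox10 share 0 stretches of at least 31 identical bases. For Sox8, 10.6% of the exonic bases overlap the antisense gene 2810468N07Rik.

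Pdgfra and Cspg4, the surface markers of oligodendrocyte precursors, differed in abundance and in the size of their estimates. Pdgfra (ENSMUSG00000029231.15, chromosome 5, 75152292 to 75198215) encodes the receptor through which PDGF-A drives precursor proliferation. It measured 11.1 and 14.2 CPM in the controls and 9.27 and 9.38 CPM in the knockdown. Both knockdown libraries were lower than both controls, and the control libraries stood further apart than the knockdown libraries. The estimate was 74.5% of control, with an unadjusted 95% interval of 57.5% to 96.5% (log2 fold change -0.43, SE 0.19). With an unadjusted p of 0.0262 it ranked 1155 of 14050 genes and did not pass (adjusted p = 0.319 in edgeR). Opposite-strand gene Gm42802 overlaps 4.55% of its exonic bases. The log2 fold change was -0.61 without shControl replicate 1 (adjusted p = 0.0774 in edgeR) and -0.23 when shControl replicate 2, the higher control, was left out. Cspg4 (ENSMUSG00000032911.6, chromosome 9, 56865033 to 56899870) had only 11 and 14 counts in the controls and 12 and 14 in the knockdown, or 0.511 and 1.05 CPM against 0.640 and 0.912 CPM. Both knockdown libraries lay between the controls, and the interval of 46.4% to 228% of control is wide on both sides.

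Pdgfra and Cspg4 are also expressed outside the lineage, by connective tissue cells and by pericytes. The 10 fibroblast and mesenchyme markers summed to 46.7 to 52.0 CPM in the controls and 47.3 to 48.9 CPM in the knockdown, of which Lum, a matrix proteoglycan, made up 28.8 ± 3.08 and 28.7 ± 1.95 CPM (SD, n = 2 each). Of this list 0 of 8 tested genes passed in edgeR and limma-voom and 0 of 10 in DESeq2, and 0 had an unadjusted p under 0.05 in any of these. Col1a1 and Col3a1, which encode fibrillar collagens, measured 3.85 ± 0.393 against 4.67 ± 0.335 CPM and 7.25 ± 0.590 against 5.47 ± 0.276 CPM. The 10 pericyte and smooth muscle markers summed to 7.99 to 9.01 CPM in the controls and 7.95 to 8.69 CPM in the knockdown, with 0 of 5 tested genes called in edgeR and limma-voom, 0 of 9 in DESeq2 and 0 at an unadjusted p under 0.05. Pdgfrb, the defining receptor of pericytes, was at 0.715 ± 0.157 against 0.657 ± 0.176 CPM, Rgs5 at 2.42 ± 0.197 against 1.963 ± 0.0126 CPM, and Higd1b had 0 counts in every library, which allows up to 0.225 CPM in the shallowest. The part of such cells in the Pdgfra and Cspg4 levels was not tested.

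Cnp and Bcas1, which belong to the later, myelin-forming end of the lineage, overlapped between the groups. Cnp (ENSMUSG00000006782.16, chromosome 11, 100574904 to 100591729) measured 7.94 and 4.51 CPM in the controls and 6.02 and 5.41 CPM in the knockdown, so that both knockdown libraries lay between the controls (89.9% of control, interval 65.5% to 124%, edgeR adjusted p = 0.863). Bcas1 (ENSMUSG00000013523.13, chromosome 2, 170346991 to 170427845, minus strand) measured 2.51 and 2.10 CPM in the controls and 1.87 and 3.39 CPM in the knockdown, so that the knockdown libraries lay on either side of both controls (111% of control, interval 69.8% to 178%, edgeR adjusted p = 0.910). Antisense genes overlap 11.7% (Bcas1os1) of the exonic bases of Bcas1, and 4.23% of those of Cnp overlap Dnajc7 on the other strand.

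**Figure D3:**
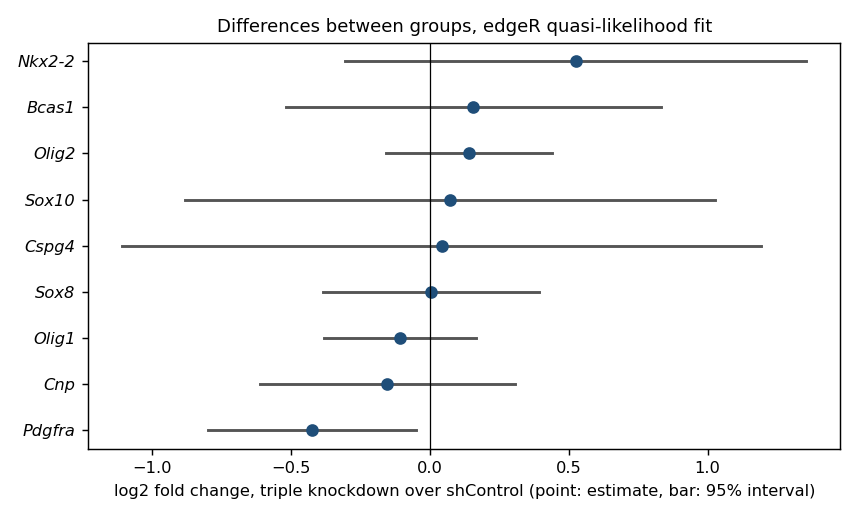
Log2 fold change of each of the 9 genes, triple knockdown over shControl, with unadjusted 95% intervals from the edgeR fit of all 4 libraries. Only the interval of Pdgfra does not include 0, and the intervals of Cspg4, Sox10 and Nkx2-2, which had the fewest counts, are the widest.

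The precision of these comparisons differed several-fold between genes. The largest p that still passed over all tested genes was 0.00066, and at the standard error of each gene this would have required a 1.40-fold difference for Olig1, 1.45-fold for Olig2, 1.59-fold for Pdgfra, 1.62-fold for Sox8 and 1.76-fold for Cnp. The corresponding differences were 2.30-fold for Bcas1, 2.79-fold for Nkx2-2, 3.25-fold for Sox10 and 4.13-fold for Cspg4. Smaller differences in these genes would not have passed in these 4 libraries.

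Leaving out 1 library at a time showed how far the estimates rested on single libraries. Olig1 and Pdgfra stayed below 0 and Olig2 and Nkx2-2 above 0 in all 4 such fits. Sox10 moved to -0.21 when shControl replicate 2 was dropped and to -0.98 when triple knockdown replicate 1 was. Sox8 moved to -0.055 and -0.03 without those same libraries. Cspg4 moved to -0.45 when shControl replicate 1 was dropped and to -0.24 when triple knockdown replicate 2 was. Cnp moved to 0.34 without shControl replicate 1, and Bcas1 to -0.31 without triple knockdown replicate 2. The direction of the estimate in these 5 genes therefore depended on which libraries were used.

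**Figure D4:**
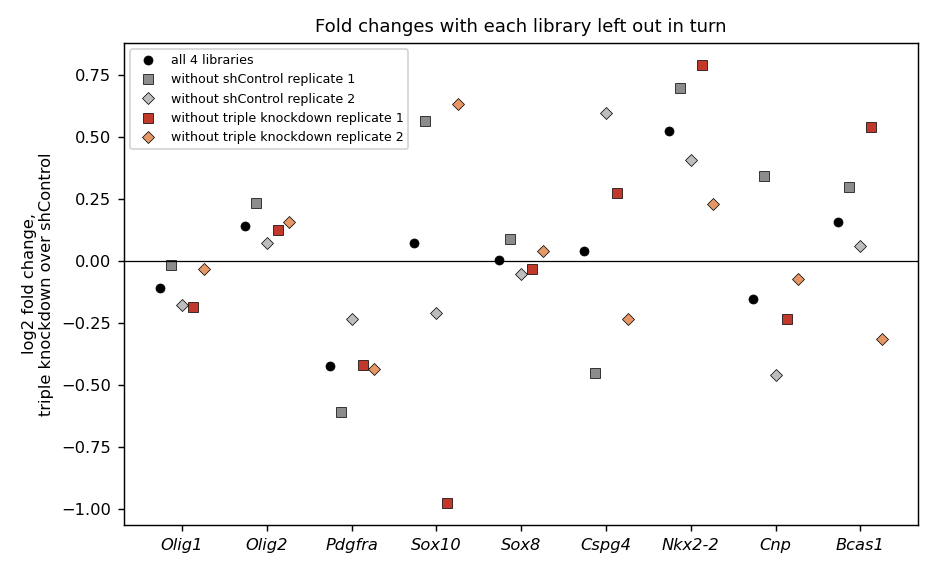
Log2 fold change of the 9 genes, triple knockdown over shControl, with all 4 libraries (black) and with each library left out in turn. The values of Sox10 run from -0.98 to 0.63, while those of Olig2 stay between 0.07 and 0.23.

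The other genes of the lineage were followed in 7 lists of known role. Among 20 myelin and maturation genes, 10 were tested and 1 rose, where 0.541% of all tested genes passed as higher. It was Enpp6, a choline phosphodiesterase that marks newly forming oligodendrocytes (ENSMUSG00000038173.15, chromosome 8, 46986887 to 47096762). It measured 1.63 and 4.06 CPM in the controls and 6.66 and 5.15 CPM in the knockdown. Both knockdown libraries were above both controls, and the fold change was 2.20 (log2 fold change 1.14 with an SE of 0.29, adjusted p = 0.0253 in edgeR). The call rested on the libraries used: the log2 fold change was 0.55 without shControl replicate 1 (edgeR adjusted p = 0.413), 1.88 when shControl replicate 2 was left out, and 0.92 when triple knockdown replicate 1 was left out (edgeR adjusted p = 0.560). DESeq2 gave 1.09 with an unadjusted p of 0.0142 and an adjusted p of 0.936. The remaining 9 tested genes of this list did not pass, and its median log2 fold change was -0.13. Structural myelin genes were low in both groups: Mbp measured 1.52 ± 0.183 against 1.38 ± 0.385 CPM, while Mag and Mog had at most 6 counts in a library and Mobp had 0 in every library.

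Surface and matrix genes of precursors had log2 fold changes below 0 in 8 of 10 tested cases, where 51.1% of all tested genes did, with a median of -0.31. Of these 0 of 10 passed in edgeR and limma-voom and 0 of 13 in DESeq2, and 2 had an unadjusted p under 0.05 in each of these tools (Bcan and Cspg5 in edgeR, where 12% of all tested genes did). Bcan, which encodes the matrix proteoglycan brevican, measured 35.3 ± 1.08 against 25.5 ± 2.29 CPM (log2 fold change -0.47 with an SE of 0.15, adjusted p = 0.097 in edgeR). Ptprz1, a receptor phosphatase also abundant in radial glia, measured 248 ± 30.8 against 212 ± 29.0 CPM, and Scrg1 3.18 ± 0.288 against 2.16 ± 0.109 CPM (edgeR adjusted p = 0.546 and 0.522). Several genes of this list are also expressed by radial glia and astrocytes. In the astrocyte list, Sparcl1 fell (log2 fold change -0.72 with an SE of 0.15, adjusted p = 0.00268 in edgeR). It was the 1 call among 8 tested genes, where 0.826% of all tested genes passed as lower. Of these 8 genes, 7 had log2 fold changes below 0. At an unadjusted p under 0.05 in edgeR 3 were lower, against 6.85% of all tested genes. The summed level of the 9 genes of this list was 218 to 228 CPM in the controls and 176 to 182 CPM in the knockdown. Gfap had at most 1 count in a library. The part of astroglial cells in the values of the precursor list was not tested.

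Transcription and chromatin factors of the lineage gave 0 calls among 15 tested genes in edgeR and limma-voom and among 17 in DESeq2. At an unadjusted p under 0.05 there were 2 in edgeR (Sox6 and Tcf7l2), 0 in DESeq2 and 3 in limma-voom. In edgeR, 12% of all tested genes had such a p. The median log2 fold change of these factors was -0.07. Hdac2, a deacetylase, measured 141 ± 9.24 against 134 ± 21.1 CPM (edgeR adjusted p = 0.896). Tcf7l2 and Myrf, 2 regulators of the step to mature oligodendrocytes that were picked out after their values were seen, measured 12.5 ± 1.91 against 15.9 ± 1.64 CPM and 4.41 ± 2.36 against 5.93 ± 0.364 CPM (edgeR adjusted p = 0.397 and 0.46). The Myrf libraries of the 2 groups overlapped. Sox6 was lower, at 9.19 ± 0.141 against 6.96 ± 0.197 CPM (edgeR adjusted p = 0.416). Of the 15 tested factors, 9 had log2 fold changes below 0 and 6 above. Of the 9 inhibitors of oligodendrocyte differentiation, 0 passed with any of the 3 tools and 1 had an unadjusted p under 0.05 with each. Id2 and Id4, which bind and block basic helix-loop-helix factors, measured 295 ± 11.8 against 284 ± 2.70 CPM and 43.2 ± 2.38 against 31.7 ± 4.23 CPM (edgeR adjusted p = 0.921 and 0.11), and the Notch effector Hes5 39.2 ± 3.45 against 34.3 ± 1.78 CPM.

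Signals that act on the lineage were also compared. Of the PDGF ligands and the second PDGF receptor, 0 of 4 tested genes passed in edgeR and limma-voom, 0 of 5 passed in DESeq2, and 0 had an unadjusted p under 0.05. Pdgfa, the main ligand of Pdgfra, measured 3.91 ± 0.320 against 3.68 ± 1.06 CPM, and Pdgfc 6.67 ± 0.559 against 6.01 ± 0.766 CPM. In the Hedgehog pathway, which induces Olig genes in the ventral forebrain, 0 of 10 tested genes passed in edgeR, with 4 at an unadjusted p under 0.05 (Dhh and Gli2 higher, Ptch1 and Gas1 lower). Of all tested genes, 12% had such a p in edgeR. Dhh had 14 to 38 counts in a library. Of its exonic bases, 12.4% overlap Rhebl1 on the same strand and 25.2% overlap Gm49442 on the other. DESeq2 called 0 of 15 and limma-voom 0 of 10, with 0 and 4 at an unadjusted p under 0.05. Gas1, a Hedgehog co-receptor, measured 19.6 ± 2.47 against 15.4 ± 0.519 CPM, the transducer Smo 7.01 ± 0.390 against 6.58 ± 0.645 CPM, and the transcription factor Gli3 7.21 ± 0.537 against 8.88 ± 1.26 CPM (edgeR adjusted p = 0.399, 0.928 and 0.597). Among 7 FGF and EGF family receptors 0 passed with any of the 3 tools, and 2, 0 and 2 had an unadjusted p under 0.05 in edgeR, DESeq2 and limma-voom. The 2 in edgeR were Fgfr3 and Erbb4, a neuregulin receptor, which measured 2.65 and 3.68 CPM in the controls and 1.55 and 1.69 CPM in the knockdown (log2 fold change -0.95, adjusted p = 0.189 in edgeR). Fgfr1, Fgfr3 and Egfr had log2 fold changes of -0.03, -0.37 and 0.13 (edgeR adjusted p = 0.970, 0.376 and 0.828).

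**Figure D5:**
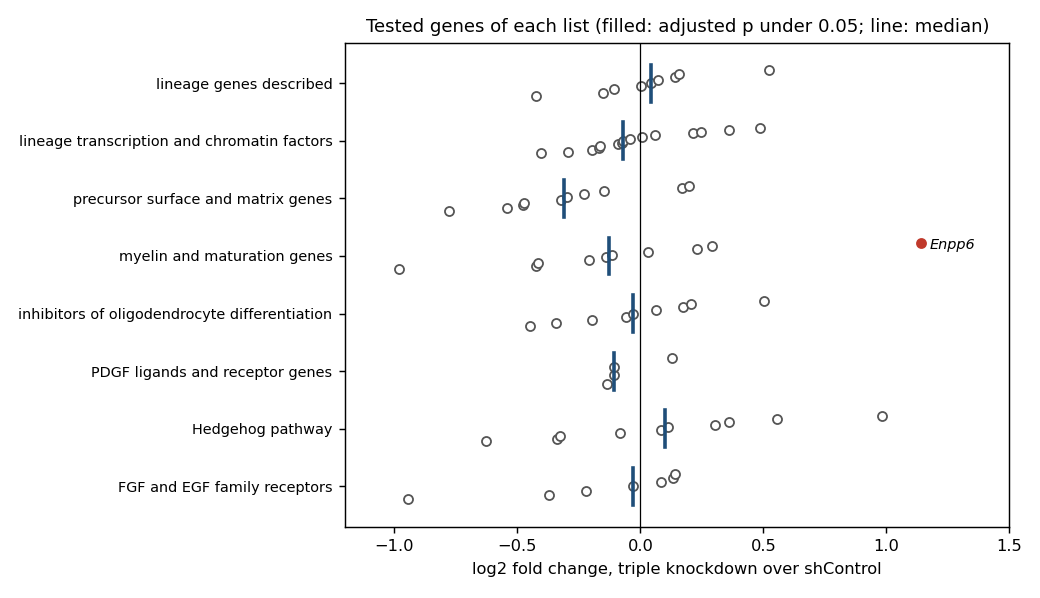
Log2 fold change, triple knockdown over shControl, of every tested gene in the 9-gene set and in the 7 further lists; filled points passed an adjusted p under 0.05 in edgeR and vertical lines are list medians. Enpp6 is the one filled point, and the median of the precursor surface and matrix genes, at -0.31, lies below those of the other lists.

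Olig2 is shared with ventral forebrain progenitors, and markers of that territory were present in these dorsally derived cultures. The 11 ventral and interneuron markers summed to 107 to 112 CPM in the controls and 85.8 to 92.4 CPM in the knockdown, with 0 of 8 tested genes called in edgeR and limma-voom and 0 of 11 in DESeq2. At an unadjusted p under 0.05 there were 3 in edgeR (Dlx1, Dlx2 and Gad1, all negative), 2 in DESeq2 and 3 in limma-voom. The share over all tested genes in edgeR was 12%, with 6.85% lower. Dlx1, Sp8 and Dlx5 were the most abundant per length, and Dlx1 measured 35.6 ± 3.86 against 28.1 ± 0.465 CPM (edgeR adjusted p = 0.295), while Nkx2-1 and Lhx6, which define the medial ganglionic eminence, had at most 9 and 6 counts in a library. The cortical factors Emx1, Pax6 and Lhx2 were detected in all 4 libraries, at 3.06 to 6.18, 23.3 to 28.1 and 32.4 to 42.5 CPM. Of the 10 neural crest and Schwann cell markers, which would accompany Sox10 from peripheral glia, 0 of 4 tested genes passed in edgeR and limma-voom and 0 of 9 in DESeq2, with 1 at an unadjusted p under 0.05 in each. In edgeR this gene was Tfap2a, a transcription factor of the neural crest, at 0.836 and 2.85 CPM in the controls and 3.46 and 2.80 CPM in the knockdown (log2 fold change 0.87, adjusted p = 0.308 in edgeR), with groups that overlapped. Foxd3, a defining factor of the neural crest, had 1 to 5 counts in a library. The summed level of these markers, 271 to 297 CPM in the controls and 223 to 255 CPM in the knockdown, came mostly from Gap43, which neurons also express. The part of ventral cells in the Olig2 level was not tested.

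The libraries held between 14694387 and 20779211 estimated counts. Mitochondrially encoded genes held 30.3% and 33.9% of control counts and 26.6% and 28.5% of knockdown counts. None of the targeted genes passed the threshold, with log2 fold changes of -0.29 for Phf21b, -0.37 for Zfp7 and -0.40 for Zfp57 (edgeR adjusted p = 0.644, 0.80 and 0.341). Phf21b and Zfp57 were below both controls in both knockdown libraries, and Zfp7 overlapped, at 1.67 and 2.25 CPM in the controls and 1.97 and 0.977 CPM in the knockdown. Markers of neurons summed to 808 to 905 CPM in the controls and 655 to 662 CPM in the knockdown, and 3 of 9 passed as lower in edgeR, Neurod6, Tubb3 and Nsg2 (log2 fold changes -1.12, -0.72 and -0.56). Of all tested genes, 0.826% passed as lower. Of 9 radial glia markers, 5 microglia markers and 3 endothelial markers tested, 0 passed in edgeR, with 2, 2 and 0 at an unadjusted p under 0.05, where 12% of all tested genes were. DESeq2 called 0 of the 9, 8 and 8 genes it tested in these lists, with 1, 0 and 0 at an unadjusted p under 0.05, and limma-voom called 0, 1 and 0, the call being Ptprc, a leukocyte surface phosphatase. It measured 5.34 and 10.1 CPM in the controls and 12.6 and 10.6 CPM in the knockdown. Lyz2, a myeloid lysozyme and the other microglia marker at an unadjusted p under 0.05 in edgeR, lay the other way, at 16.5 and 14.2 CPM against 12.7 and 9.71 CPM, and 3 of the 5 tested markers of that list had log2 fold changes below 0.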

How the data were processed

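RNA sequencing of 2 shControl and 2 triple knockdown libraries was analysed from 1 deposited table. The deposited values are estimated counts per gene, which the authors made with Salmon on GRCm38/mm10, per the submitters' processing notes, with no normalization. The version of Salmon, its annotation and its strand setting were not given in the sources used here. Estimated counts were rounded to whole numbers (23.1% to 25.1% of values were not whole). Identifiers were matched without version to GENCODE M21, which named 34652 of 34866; exonic lengths, overlaps and shared 31-base words come from that release. The test was edgeR's (version 4.0.16, R 4.3.3; TMM factors 0.907 to 1.05, filterByExpr with a minimum count of 10, robust quasi-likelihood F test, two-sided, Benjamini-Hochberg over 14050 genes, threshold 0.05). SE is the log2 fold change divided by the square root of F, and 95% intervals use the fit's degrees of freedom. An exact permutation test of 2 against 2 cannot go below p = 0.33 and was not used. Limits for 0 counts use 3 counts and cover counting error only. Alternatives were other scalings, filters and tests (DESeq2 1.42.0 and limma 3.58.1), a replicate block and leaving out each library. DESeq2 was run on all genes with a count and with its own independent filtering of low mean counts switched off. The fit was checked on simulated data. From each list the text names up to 4 genes past the threshold, or else up to 3 with the highest CPM per kb, besides the 9 genes, the 3 targeted genes and genes given as marker checks; genes named for an unadjusted p, Tcf7l2, Myrf and Ptprc were chosen after their values were seen. The 9 genes and all lists were chosen with earlier results of these data known. Some genes of the lists are not reported here by name.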

Additional observations from a re-analysis of the deposited data

How the results depend on the processing

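Over 12 alternative fits, 0 of the 9 lineage genes passed the threshold in either direction. Olig1 and Pdgfra kept a negative and Olig2 and Nkx2-2 a positive sign in all 12. Of 107 alternative values of the 9 genes, 10 had the opposite sign, all in the other 5 genes, and the cause was not tested. Sox10 was -0.087 with limma-voom and Sox8 -0.0053 without the low-count filter. With 1 library left out, log2 fold changes ran from -0.98 to 0.63 for Sox10, from -0.055 to 0.088 for Sox8, from -0.45 to 0.60 for Cspg4, from -0.46 to 0.34 for Cnp and from -0.31 to 0.54 for Bcas1. Cspg4 had no value under the 1 CPM filter. Over the alternatives the adjusted p of Pdgfra was never below 0.077, its value without shControl replicate 1. Enpp6, checked in the same fits after the data were seen, passed in 9 of 12.

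The count of all genes past the threshold was 192, and it was 105 (77 higher, 28 lower) with library size alone, 55 with DESeq2, and between 44 and 614 with 1 library left out (296 without shControl replicate 1, 614 without shControl replicate 2, 44 and 63 without triple knockdown replicates 1 and 2), against 76 higher and 116 lower. With 1 library left out, the lone library is assumed to vary like the other group. Between the 2 libraries of a group, the chi-square per gene against counting error was 17.0 in shControl and 6.88 in the triple knockdown. This chi-square used library totals without TMM factors. Those factors were 1.04 and 0.907 in shControl and 1.05 and 1.01 in the triple knockdown. With 1 pair of libraries per group, the chi-square cannot decide whether the groups varied alike. The replicate block gave 172 genes and 0 of the 9. Whether same-numbered libraries were handled together is not stated in the sources used here. Their deviations from the group mean correlated at -0.05 over 14050 genes, a value that cannot decide this. Cspg4, Sox10 and Nkx2-2 had the fewest counts and the largest standard errors of the 9 genes, and the shares of depth and of spread between libraries in those errors were not tested.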
